A study of Mus musculus with 4 samples.

Results

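The genes described here are 44 mouse genes for chromatin remodelers, histone deacetylases and related chromatin enzymes, out of 21887 protein-coding genes with an interval in the RefSeq annotation used. They are a list of named genes, not a selection by a threshold on these data. The set holds 8 genes of the CHD family, 12 SWI/SNF subunits, the ISWI ATPase gene Smarca5, 9 histone deacetylases, 4 genes of Polycomb repressive complex 2 (PRC2), the acetyltransferase genes Ep300 and Crebbp, 5 DNA methylation genes, and Ehmt1, Ehmt2 and Kdm4a. Accessible chromatin was mapped by Omni-ATAC-seq, where a transposase cuts and tags open DNA, in oligodendrocytes (OLs) and in oligodendrocyte progenitor cells (OPCs). OLs were sorted for the O1 antigen, a surface lipid of differentiating oligodendrocytes. OPCs were expanded in bFGF and PDGFA (20 ng/mL of each) and had been purified after 4 passages with antibodies to CD140a and NG2. Both groups were derived from 129O1 and EpiSC5, lines of epiblast stem cells, and SHH was left out for both. Strains 129SvEv and 129S1/SvImJ are named, but the labels do not tie a strain to a line. Each group held 1 library per line (n = 2 in each group), and nothing in the labels tells whether these were separate differentiations. The p-values and SEs below therefore rest on the spread between these 4 libraries. The limma test draws the spread of each gene toward that of all genes with similar coverage. An SE is thus not the gene's own spread at n = 2.

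Chromatin remodelers use ATP to slide, evict or exchange nucleosomes, and so decide which stretches of DNA other proteins can reach. Histone deacetylases remove acetyl groups from histone tails and mostly act with corepressors, whereas acetyltransferases add them, and PRC2 and the methyltransferases encoded by Ehmt1 and Ehmt2 write repressive marks on histone H3. In the oligodendrocyte lineage, Smarca4, Chd7, Chd8, Hdac1, Hdac2 and Hdac3 are known from mouse studies to be needed for progenitors to differentiate or for myelination. The data below describe the accessibility of these genes themselves, not the activity of the proteins they encode.

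The start regions of 5 genes on which the results turn are shown first, because each carried a peak in all 4 libraries. Hdac7 has further listed starts, some of them without a peak, and the coverage around its starts is given below. They are from the RefSeq promoter table of GRCm38.p6 (mm10), each 250 bases before and 50 after a listed start, on the gene's own strand. Capitals mark GGGCGG (a GC box) and CCAAT, each searched on both strands, so that CCGCCC and ATTGG would also be marked. In these 5 windows no match overlapped another.
Ehmt1, chr2:24919560-24919859, minus strand: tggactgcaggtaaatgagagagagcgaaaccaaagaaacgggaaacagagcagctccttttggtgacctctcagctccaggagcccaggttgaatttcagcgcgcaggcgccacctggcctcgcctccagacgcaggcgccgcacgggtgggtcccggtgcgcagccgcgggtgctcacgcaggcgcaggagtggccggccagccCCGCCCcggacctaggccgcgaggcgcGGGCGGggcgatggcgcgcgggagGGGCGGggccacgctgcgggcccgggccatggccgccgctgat
Chd6, chr2:161109037-161109336, minus strand: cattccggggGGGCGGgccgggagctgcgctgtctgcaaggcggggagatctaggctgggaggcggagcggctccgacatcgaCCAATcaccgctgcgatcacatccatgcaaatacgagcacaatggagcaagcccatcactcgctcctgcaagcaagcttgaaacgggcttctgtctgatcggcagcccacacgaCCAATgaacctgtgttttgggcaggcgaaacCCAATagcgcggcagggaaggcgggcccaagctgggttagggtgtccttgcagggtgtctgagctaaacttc
Hdac4, chr1:92180292-92180591, minus strand: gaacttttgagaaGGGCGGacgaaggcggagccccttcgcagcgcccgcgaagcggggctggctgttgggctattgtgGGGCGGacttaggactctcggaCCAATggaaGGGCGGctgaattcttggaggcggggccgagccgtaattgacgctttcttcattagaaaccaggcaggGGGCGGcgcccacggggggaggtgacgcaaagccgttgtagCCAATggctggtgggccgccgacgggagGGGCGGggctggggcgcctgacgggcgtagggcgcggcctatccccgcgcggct
Hdac7, chr15:97831446-97831745, minus strand: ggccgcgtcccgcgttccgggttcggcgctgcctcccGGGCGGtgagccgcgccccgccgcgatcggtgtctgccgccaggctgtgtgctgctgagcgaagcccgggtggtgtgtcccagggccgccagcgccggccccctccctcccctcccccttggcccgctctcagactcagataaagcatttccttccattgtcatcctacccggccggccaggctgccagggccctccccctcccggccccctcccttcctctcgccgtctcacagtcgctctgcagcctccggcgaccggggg
Smarcd1, chr15:99702037-99702336, plus strand: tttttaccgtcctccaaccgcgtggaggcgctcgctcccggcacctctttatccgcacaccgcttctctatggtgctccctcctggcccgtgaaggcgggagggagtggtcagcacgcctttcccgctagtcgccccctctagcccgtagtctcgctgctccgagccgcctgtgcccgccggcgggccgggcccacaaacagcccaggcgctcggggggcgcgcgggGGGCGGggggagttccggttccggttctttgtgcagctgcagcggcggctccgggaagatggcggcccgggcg

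All 5 windows were rich in CpG, with 34 in Ehmt1, 20 in Chd6, 32 in Hdac4, 31 in Hdac7 and 35 in Smarcd1, against a median of 7 over 32851 promoter windows in the table. This did not set them apart from the other members, since the median over the 47 windows of members was 29. Ehmt1 held 3 GC boxes, Hdac4 held 5, and Chd6, Hdac7 and Smarcd1 held 1 each. CCAAT occurred 3 times in Chd6 and 2 times in Hdac4. Each of the 5 windows carried a peak in all 4 libraries, and those of Chd6, Hdac4, Hdac7 and Smarcd1 were covered over all 300 bases in every library. In Ehmt1 the peak covered 245 and 242 of the 300 bases in OLs and 256 and 300 in OPCs (129O1 and EpiSC5 in turn). Among all members, 35 had at least 1 start in the table, 47 starts in all, and 40 of these starts lay under a peak in all 4 libraries. These 40 starts belonged to 34 members. GGGCGG was present in 35 of the 47 windows (74.5%), against 35.7% of all windows in the table, and CCAAT in 14 (29.8%), against 37.4%.

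For OLs, 127196 peaks spanning 35.0 Mb were listed in 129O1 and 152595 peaks spanning 41.2 Mb in EpiSC5. For OPCs the numbers were 129534 peaks spanning 38.6 Mb in 129O1 and 125002 peaks spanning 44.1 Mb in EpiSC5. The lists give no read counts, so the depth behind a peak is unknown, whatever the yield stated for sequencing. The 10 oligodendrocyte markers summed to between 25.1 and 27.1 kb of covered sequence in OLs and between 14.5 and 17.1 kb in OPCs, and 5 of the 9 tested were higher in OLs. The 5 OPC markers summed to between 22.2 and 23.4 kb in OLs and between 20.0 and 20.2 kb in OPCs, with 0 of 5 called, so they did not set the OPC libraries apart. The 7 vascular and mesenchymal markers summed to 4.09 and 4.19 kb in OLs and to 8.75 and 8.81 kb in OPCs, and 4 of the 5 tested were lower in OLs, with Col1a2 at 0 in both OL libraries. The 8 astrocyte markers summed to 14.95 and 15.04 kb in OLs and to 17.73 and 18.01 kb in OPCs, with 2 lower in OLs. Neuron markers (26.9 to 27.4 kb in OLs, 27.3 to 31.1 kb in OPCs, 3 of 7 lower) and microglia markers (3.37 to 3.67 kb in OLs, 3.25 to 3.27 kb in OPCs, 0 of 3 called) were also covered. Of 5 pluripotency markers, Pou5f1 and Dppa5a were at 0 in all 4 libraries. The part of other cell types in the results below was not tested.

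Coverage of a gene was measured as the base pairs lying under peaks between 2 kb before and 2 kb after its interval, scaled to the mean list total. Of the 44 members, 9 had more covered sequence in OLs than in OPCs and 1 had less at an adjusted p below 0.05 by limma. Among all 14543 genes tested, 19.6% passed, 11.0% higher and 8.63% lower, so the members' share of 22.7% lay near the background and is not read as a property of the set. The 9 higher genes were Ehmt1, Chd6, Hdac4, Chd2, Chd7, Smarca4, Arid2, Kdm4a and Arid1b, and the lower gene was Hdac7. The members' median difference was 0.04 on the log2 scale, against -0.02 over all genes. Both OL libraries lay above both OPC libraries in 18 members (40.9%, against 27.4% of all genes) and below them in 11 members (25%, against 28.1%), and the groups overlapped in the other 15. Leaving out the 129O1 OL or the EpiSC5 OL library left 7 and 5 members called, against 14.4% and 12.9% of all genes. Leaving out the 129O1 OPC or the EpiSC5 OPC library left 9 in each case, against 15.8% and 14.5% of all genes. The members called without the 129O1 OPC library included Hdac5, which was not called with all libraries. Without scaling, 2 members were called, against 4.00% of all genes, and the share of calls that were higher in OLs over all genes was 33.8% in place of 56.1%, with a shift of the median gene to -0.13. With the cell line as a block, 10 members were called (20.0% of all genes), Chd2 no longer among them (adjusted p = 0.0585 by limma) and Ezh1 added as lower. In bulk libraries of this kind, a site open in fewer cells and a weaker site in every cell cannot be told apart.

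**Figure D1:**
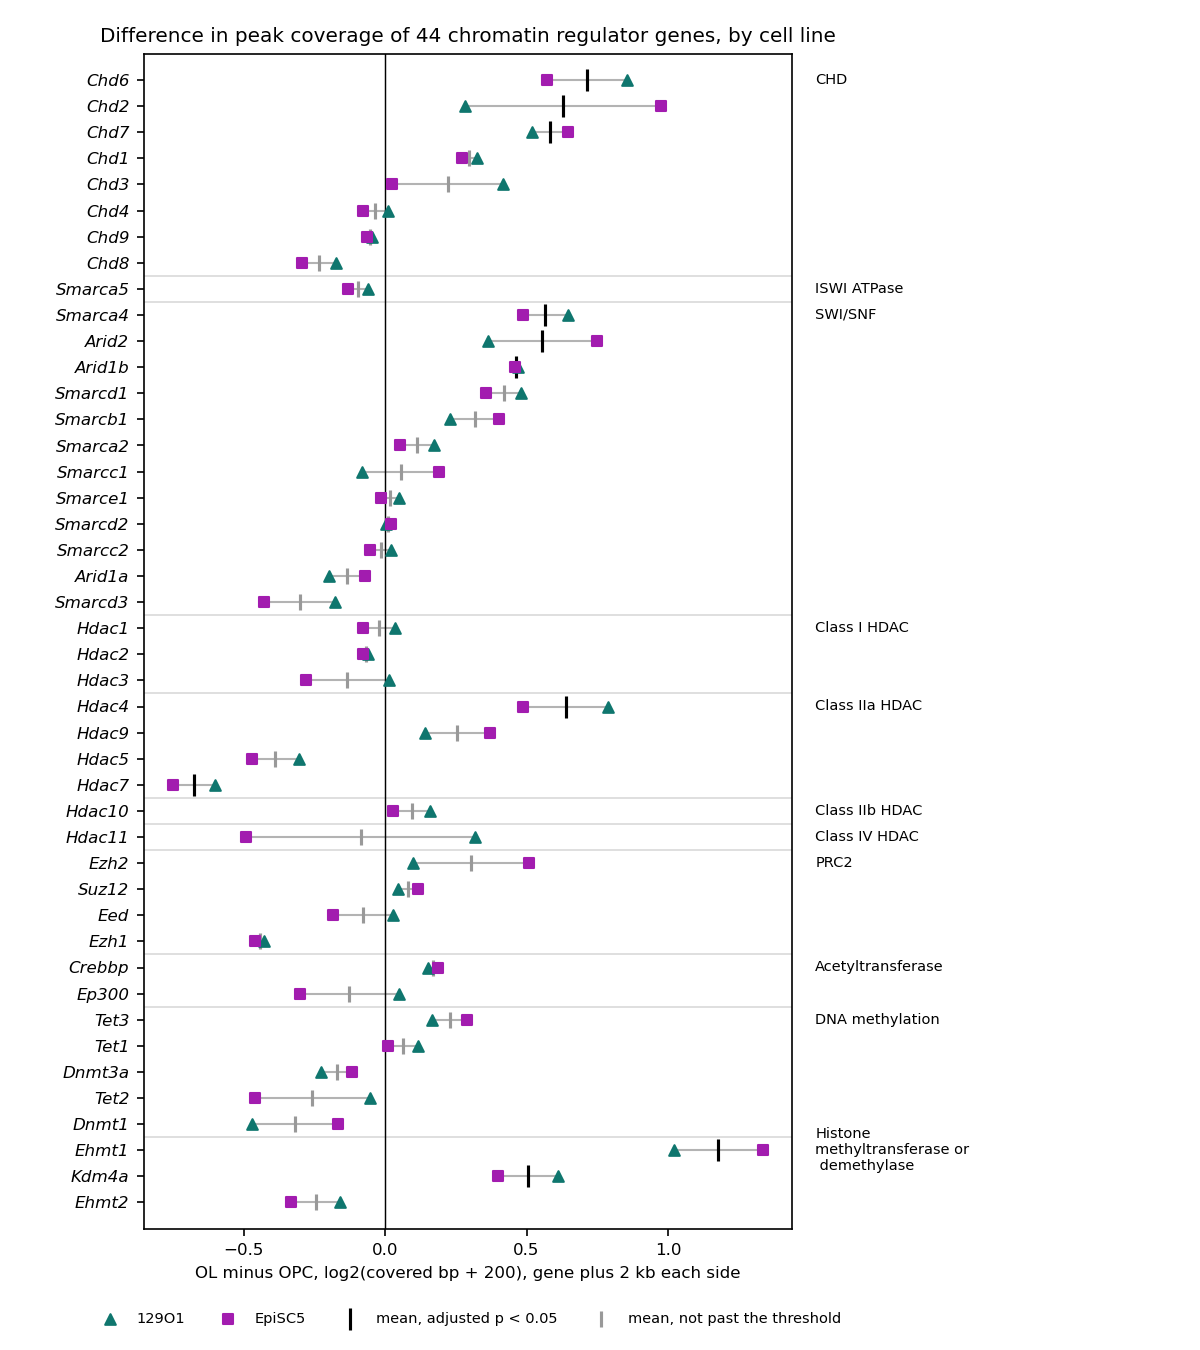
Difference in covered sequence for all 44 members, OL minus OPC on the log2(covered bp + 200) scale, grouped by family. Triangles and squares are the lines 129O1 and EpiSC5, and the vertical ticks are their means, black where the adjusted p was below 0.05. Ehmt1 lies farthest to the right and Hdac7 farthest to the left, and the lines lie on opposite sides of 0 for Hdac11.

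Among the CHD remodelers, which slide nucleosomes with a helicase-like motor, 3 of 8 genes had more covered sequence in OLs and none had less. This was 37.5%, against 19.6% of all genes (11.0% higher and 8.63% lower). With 8 genes, the share is not read as a property of the family. Chd6 (chr2:160946978-161109086), of the same subfamily as Chd7, had 5.87 and 5.08 kb of scaled covered sequence in OLs of 129O1 and EpiSC5, against 3.15 and 3.35 kb in OPCs. Its group means were 5.47 ± 0.558 kb in OLs and 3.25 ± 0.137 kb in OPCs (SD, n = 2 each). Both OL libraries stood well above both OPC libraries, and the log2 difference was 0.71 ± 0.14 (SE, adjusted p = 0.00178 by limma). Chd7 (chr4:8690402-8868449), which is mutated in human CHARGE syndrome and acts with Sox10 in mouse oligodendrocytes, had 8.10 and 7.99 kb in OLs and 5.59 and 5.04 kb in OPCs. Its groups did not overlap, and the OL libraries were nearly equal (log2 difference 0.58 ± 0.13, adjusted p = 0.00399 by limma). Both calls held with any single library left out.

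Chd2 (chr7:73426652-73541746), linked to deposition of the histone variant H3.3, had 4.25 and 5.01 kb in OLs and 3.47 and 2.45 kb in OPCs. The groups did not overlap, but the difference was larger in EpiSC5 (0.98) than in 129O1 (0.28), with a mean of 0.63 ± 0.17 (SE, adjusted p = 0.0118 by limma). Without the EpiSC5 OL library the adjusted p was 0.115 by limma, and without the EpiSC5 OPC library 0.117. Chd9 (chr8:90828302-91054516) had 9.68 and 9.89 kb in OLs and 9.99 and 10.3 kb in OPCs, a difference of -0.05 that did not pass (adjusted p = 0.827 by limma). Chd1, Chd3, Chd4 and Chd8 did not pass either, with Chd8 at 3.06 ± 0.179 kb in OLs and 3.63 ± 0.0150 kb in OPCs. Chd3 and Chd4, the motors of the NuRD deacetylase complex, had 1.41 ± 0.358 and 2.89 ± 0.340 kb in OLs and 1.16 ± 0.0431 and 2.96 ± 0.212 kb in OPCs.

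Of the 12 SWI/SNF genes, 3 were higher in OLs and none was lower. This share of 25% lay near the 19.6% of all genes and is not read as a property of the family. Smarca4 (chr9:21616106-21704230), which encodes the ATPase Brg1, had 3.44 and 3.42 kb in OLs and 2.12 and 2.38 kb in OPCs. The libraries of each group lay close together and the groups did not overlap (log2 difference 0.57 ± 0.15, adjusted p = 0.0124 by limma). The gene for the alternative ATPase, Smarca2, had 5.58 ± 0.492 kb in OLs and 5.13 ± 0.144 kb in OPCs, which did not pass (adjusted p = 0.657 by limma). Without the 129O1 OL, EpiSC5 OL or 129O1 OPC library the adjusted p of Smarca4 was 0.0628, 0.0613 and 0.0571 by limma.

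Arid1b (chr17:4994297-5347656), a DNA-binding subunit of BAF and the longest SWI/SNF gene of the set at 353 kb, had 18.6 and 17.2 kb in OLs and 13.4 and 12.5 kb in OPCs. Its difference was alike in 129O1 and EpiSC5 (0.47 and 0.46), with a mean of 0.46 ± 0.11 (SE, adjusted p = 0.0048 by limma), and without the 129O1 OL library the adjusted p was 0.0538 by limma. The paralog Arid1a had 4.29 ± 0.0753 kb in OLs and 4.73 ± 0.387 kb in OPCs and did not pass (adjusted p = 0.596 by limma). Arid2 (chr15:96287522-96405463), the ARID subunit of the PBAF complex, had 3.35 and 4.39 kb in OLs and 2.56 and 2.54 kb in OPCs. The EpiSC5 OL library was the high one, and without it the difference was 0.37 in place of 0.56 ± 0.16 (adjusted p = 0.263 in place of 0.0184, by limma). In Arid2, 50.9% of the covered sequence also lay in the region of another gene. Smarcb1, Smarcc1, Smarcc2, Smarcd1, Smarcd2, Smarcd3 and Smarce1, core and accessory subunits, did not pass.

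Of the 9 histone deacetylase genes, 1 was higher and 1 was lower in OLs (22.2%, near the 19.6% of all genes). Both were of class IIa, whose proteins shuttle between nucleus and cytoplasm and bind Mef2 factors. Hdac4 (chr1:91928779-92195702) had 15.7 and 13.9 kb in OLs and 9.02 and 9.86 kb in OPCs. The groups did not overlap, and the log2 difference was 0.64 ± 0.12 (SE, adjusted p = 0.000847 by limma), which held with any single library left out. Hdac7 (chr15:97792661-97844502) had 3.26 and 2.72 kb in OLs and 5.04 and 4.70 kb in OPCs. Both OL libraries lay below both OPC libraries, with a difference of -0.67 ± 0.15 (SE, adjusted p = 0.00353 by limma). Without the EpiSC5 OL library the difference of Hdac7 was -0.55 (adjusted p = 0.056 by limma).

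The other class IIa genes did not pass. Hdac5 (chr11:102195747-102230172) had 2.94 and 3.17 kb in OLs and 3.69 and 4.46 kb in OPCs (log2 difference -0.39 ± 0.15, adjusted p = 0.082 by limma). Its groups did not overlap, and without the 129O1 OPC library the adjusted p was 0.0326 by limma. Hdac9, the longest member, had 7.51 ± 0.506 kb in OLs and 6.26 ± 0.307 kb in OPCs (adjusted p = 0.195 by limma). The class I genes Hdac1, Hdac2 and Hdac3 lay between -0.13 and -0.02, with no call, and Hdac1 had 1.91 ± 0.293 kb in OLs and 1.93 ± 0.178 kb in OPCs. Hdac10, of class IIb, differed by 0.09 between OLs and OPCs (adjusted p = 0.761 by limma). Hdac11, the sole class IV gene, had 1.81 ± 0.262 kb in OLs and 1.97 ± 0.568 kb in OPCs, and its lines pointed in opposite directions. All covered sequence of Hdac3 and 71.2% of that of Hdac10 also lay in the region of another gene.

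**Figure D2:**
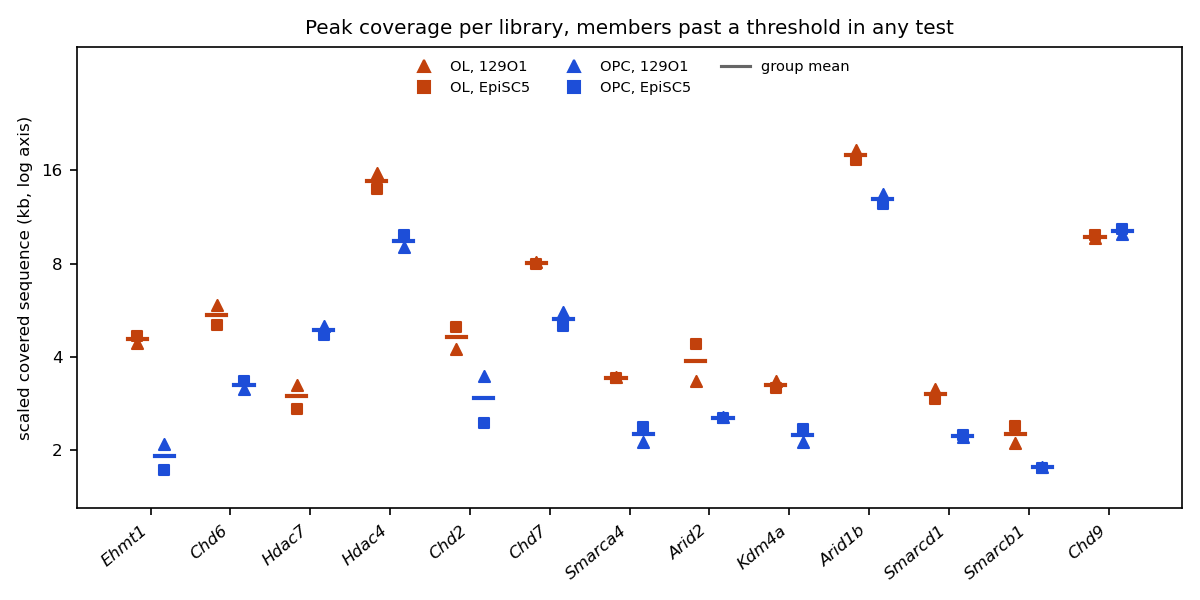
Scaled covered sequence in kb (log axis) for the 13 members past the threshold in any of the 5 tests, with OLs in orange left of OPCs in blue. Triangles are 129O1, squares are EpiSC5, and bars are group means. The OL libraries lie above the OPC libraries for 11 genes, below them for Hdac7 and Chd9.

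The largest difference of the set was in Ehmt1 (chr2:24790769-24919643), which encodes GLP, a methyltransferase of a repressive mark on histone H3. Ehmt1 had 4.45 and 4.67 kb of scaled covered sequence in OLs and 2.09 and 1.73 kb in OPCs. The groups were far apart in both lines, with a difference of 1.18 ± 0.15 (SE, adjusted p = 4.47e-05 by limma), and the call held with any single library left out. Its partner Ehmt2, which encodes G9a, had 1.54 ± 0.559 kb in OLs and 1.84 ± 0.488 kb in OPCs (adjusted p = 0.480 by limma), and 50.5% of this sequence also lay in the region of another gene. Kdm4a (chr4:118136957-118180090), a histone H3 demethylase gene, had 3.34 and 3.16 kb in OLs and 2.12 and 2.35 kb in OPCs. Its groups did not overlap (difference 0.51 ± 0.15, adjusted p = 0.0239 by limma). Without the 129O1 OL, EpiSC5 OL or 129O1 OPC library the adjusted p of Kdm4a was 0.125, 0.0752 and 0.106 by limma.

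No gene of PRC2 (0 of 4), of the acetyltransferases (0 of 2) or of DNA methylation (0 of 5) passed the test of covered sequence. Over all genes 19.6% passed. Smarca5, the ISWI ATPase gene, did not pass either. Ezh1 (chr11:101191115-101226463), a catalytic subunit of PRC2, had 1.82 and 1.44 kb in OLs and 2.52 and 2.06 kb in OPCs. The groups did not overlap, and the difference of -0.44 ± 0.17 missed the threshold (adjusted p = 0.0721 by limma) but passed in the fit blocked on cell line (adjusted p = 0.0401 by limma). Ezh2 (chr6:47530274-47595270), the other catalytic subunit, had 2.28 and 2.12 kb in OLs and 2.11 and 1.43 kb in OPCs, which nearly touched (difference 0.30 ± 0.18, adjusted p = 0.261 by limma). Dnmt1 (chr9:20907206-20959888), the maintenance methyltransferase gene, had 2.25 and 2.20 kb in OLs and 3.19 and 2.50 kb in OPCs, with both OL values below both OPC values (difference -0.32 ± 0.16, adjusted p = 0.187 by limma). Dnmt3a and Tet3 had 5.86 ± 0.388 and 6.58 ± 0.0423 kb in OLs, against 6.62 ± 0.0706 and 5.59 ± 0.386 kb in OPCs. Ep300 had 1.90 ± 0.129 kb in OLs and 2.10 ± 0.249 kb in OPCs, and Crebbp had 4.21 ± 0.271 kb in OLs and 3.73 ± 0.173 kb in OPCs.

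Sequence within 1 kb of either end of the annotated interval was then taken apart from the rest. At the gene ends, 1 of 39 members tested differed, Smarcd1, which was higher in OLs, against 4.98% of 10992 genes (0.828% higher and 4.15% lower). Of all calls at gene ends 16.6% were higher in OLs, a share that became 52.0% with median-of-ratios scaling. Smarcd1 (chr15:99702287-99713995), a BAF60 subunit gene, had 1.42 and 1.34 kb at its ends in OLs and 0.769 and 0.691 kb in OPCs. The groups were clearly apart (difference 0.77 ± 0.17, adjusted p = 0.000549 by limma). The difference lay at the downstream end, where regions chr15:99714212-99714722 and chr15:99713749-99713854 had peaks in both OL libraries and in neither OPC library. Another region at that end, chr15:99714976-99716257, reached mostly beyond the 1 kb window and held 717 and 715 bp in the OL lists and 1245 and 687 bp in the OPC lists. With 2 kb on either side of a gene end Smarcd1 did not pass (0.45, adjusted p = 0.0801 by limma), and Ezh1 was called in its place, as lower (-0.54, adjusted p = 0.0247), against 7.86% of all genes. The region over its start, chr15:99701972-99702787, held 704 and 779 bp in the OL lists and 747 and 747 bp in the OPC lists. Counted over the start end alone, the difference of Smarcd1 was 0.08, and the call was lost without the 129O1 OPC library (adjusted p = 0.412 by limma) or the EpiSC5 OPC library (adjusted p = 0.548), when 16 and 36 of all genes passed. Of the covered sequence of Smarcd1, 43.1% also lay in the region of another gene. With the cell line as a block, 4 members passed at the gene ends (11.4% of all genes), adding Chd7 as higher (0.39, adjusted p = 0.00966 by limma) and Hdac4 and Ezh1 as lower (-0.83 and -0.52, adjusted p = 0.0251 and 0.0363).

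In 7 members, Dnmt1, Dnmt3a, Hdac4, Hdac7, Hdac9, Smarcd3 and Tet3, every listed start under a peak in all 4 libraries lay more than 1 kb inside the annotated interval and was counted in the rest. The Hdac4 start printed above lay 15361 bp inside, and within 1 kb of it unscaled peaks covered 1476 and 1488 bp in OLs and 1644 and 1525 bp in OPCs, alike in both groups. Hdac7 and Dnmt1 had 0 covered bp at both ends of their intervals in all 4 libraries, while the Hdac7 start printed above lay under a peak in all of them. The Hdac7 starts in chr15:97814814-97815113 and chr15:97844453-97844752 had no peak in any library. Within 1 kb of any listed Hdac7 start, unscaled peaks covered 1222 and 1271 bp in OLs and 1548 and 1535 bp in OPCs. Around any start in the RefSeq table (1 kb on either side, an alternative added after the data were seen), 1 of 34 members passed, against 3.92% of all genes. This was Hdac9, which was lower in OLs (-0.66 ± 0.17, adjusted p = 0.00597 by limma). The unscaled peaks there covered 653 and 784 bp in OLs and 1073 and 1688 bp in OPCs. The outer Hdac9 start, in chr12:34917046-34917345, had a peak in the EpiSC5 OPC library alone, whereas the inner start, in chr12:34528840-34529139, had a peak in all 4.

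Away from the gene ends, 8 of 35 members were higher in OLs and 1 was lower, against 26.1% of 8174 genes (18.2% higher and 7.87% lower). The members' share of 25.7% lay near the background. Ehmt1 had 3.31 and 3.65 kb away from its ends in OLs and 0.876 and 0.654 kb in OPCs. This was the largest difference of the 35 members (difference 1.94 ± 0.18, adjusted p = 0.00342 by limma). Chd6 had 4.196 and 3.727 kb in OLs and 1.71 and 2.04 kb in OPCs (1.01 ± 0.16, adjusted p = 0.00777 by limma). The other higher genes were Smarca4 (0.96), Kdm4a (0.92), Arid2 (0.80), Hdac4 (0.72), Chd7 (0.63) and Arid1b (0.51), and the lower gene was Hdac7 (-0.67). Hdac7 had no covered sequence at its annotated ends, so its value here repeats that of the whole gene and includes its printed start. In all 9 genes the OL and OPC libraries did not overlap, which adds no support, since they passed on these same libraries. This also held in uncalled members such as Chd1, Chd2, Hdac5 and Ezh1, and its share over all genes was not counted. All 9 kept their sign but lost the call without the 129O1 OL library (adjusted p from 0.106 to 0.135 by limma) or the EpiSC5 OL library (from 0.116 to 0.185), where 0 of all 8174 genes passed by limma, with 12 and 9 members and 2185 and 2109 genes at an unadjusted p below 0.05. Without the 129O1 OPC library, 14 members were called, against 30.8% of all genes, and without the EpiSC5 OPC library 11, against 31.6%.

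The difference at the ends was then set against the difference in the rest for the 30 members with enough coverage in both. In 4 members the gene ends were lower relative to the rest in OLs, and in none were they higher, against 21.2% of 5130 genes (18.2% lower and 3.04% higher), so the share of 13.3% lay below the background. Ehmt1 had 1.14 and 1.02 kb at its ends in OLs and 1.21 and 1.08 kb in OPCs, nearly equal, while its rest differed severalfold (ends minus rest -2.01 ± 0.23, adjusted p = 0.00742 by limma). Hdac4 had 0.431 and 0.216 kb at the ends of its annotated interval in OLs and 0.876 and 0.577 kb in OPCs, lower in OLs, while its rest, which here includes the printed start, was higher in OLs (-1.56 ± 0.28, adjusted p = 0.0142 by limma). Chd6 (-0.89 ± 0.23, adjusted p = 0.0355) and Kdm4a (-0.97 ± 0.23, adjusted p = 0.031) also passed by limma, with end values of 1.51 ± 0.227 and 1.17 ± 0.117 kb in OLs and 1.38 ± 0.0928 and 1.22 ± 0.185 kb in OPCs. With the cell line as a block, 7 members passed (29.4% of all genes), with Arid1b, Arid2 and Smarca4 added, all lower at the ends relative to the rest. Without the EpiSC5 OL library none passed (adjusted p of the 4 from 0.0711 to 0.164 by limma), as was the case for all 5130 genes, with 5 members and 1260 genes at an unadjusted p below 0.05. Chd6 also lost the call without the 129O1 OL library (adjusted p = 0.0943) or the 129O1 OPC library (0.111), and Kdm4a without the 129O1 OL (0.0822) or the EpiSC5 OPC library (0.0658), all by limma.

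**Figure D3:**
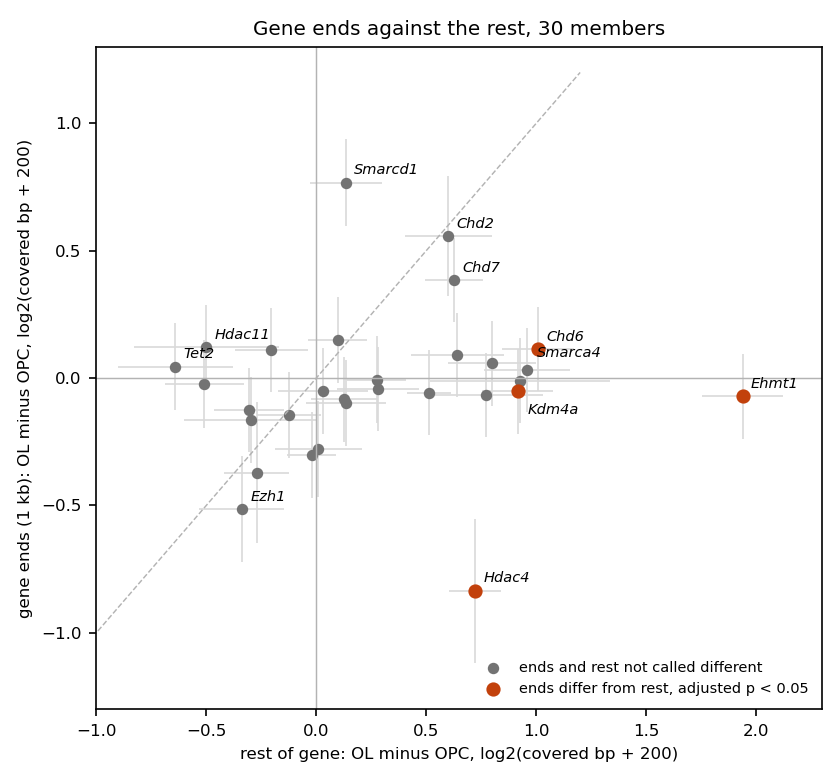
OL minus OPC difference at the gene ends (vertical axis) against the difference in the rest of the gene (horizontal axis) for 30 members, both on the log2(covered bp + 200) scale, with SE bars. The dashed line marks equal differences. Most genes spread along the horizontal axis near 0 on the vertical axis, Ehmt1 reaches 1.94 on the horizontal axis, and Hdac4 lies at -0.83 on the vertical axis.

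By number of peaks, 5 of 39 members were higher in OLs and none was lower, against 7.26% of 9009 genes (5.07% higher and 2.19% lower). This share, 12.8%, was above the background, but rests on 5 genes. Over the whole lists, the median peak width was 190 and 192 bp in OLs and 201 and 237 bp in OPCs (129O1 and EpiSC5 in turn). The part of peak width in the peak numbers was not tested. Smarcb1 (chr10:75896769-75921614), a core SWI/SNF subunit gene, had 7 and 8 peaks in the OL lists and 3 and 2 in the OPC lists (1.19 ± 0.23 on the log2(scaled peaks + 1) scale, adjusted p = 0.0314 by limma). Its covered sequence, 2.11 and 2.39 kb in OLs and 1.77 and 1.76 kb in OPCs, did not pass (0.32, adjusted p = 0.179 by limma), and 50.0% of it also lay in the region of another gene. Ehmt1 had 15 and 17 peaks in OLs and 7 and 5 in OPCs (1.18 ± 0.20, adjusted p = 0.023 by limma).

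Chd6 had 18 and 14 peaks in OLs and 7 and 7 in OPCs, and Chd7 had 28 and 31 in OLs and 17 and 14 in OPCs. Both separated the groups (0.96 and 0.77, adjusted p = 0.0458 and 0.0334 by limma). Chd9 had 26 and 33 peaks in OLs and 18 and 17 in OPCs (0.59, adjusted p = 0.049 by limma), although its covered sequence was alike in both groups. In the 50% of peaks with the best q value the Chd9 difference changed sign, to -0.13 (adjusted p = 0.678 by limma). Without the 129O1 OPC or the EpiSC5 OPC library, 0 of all 9009 genes passed by limma (adjusted p of the 5 members from 0.219 to 0.294 and from 0.238 to 0.294), with 13 and 10 members and 1895 and 1698 genes at an unadjusted p below 0.05. Without the 129O1 OL library 3 members were called (9.02% of all genes), and Chd6, Chd7 and Chd9 were lost (adjusted p = 0.211, 0.0787 and 0.129 by limma), and without the EpiSC5 OL library Chd9 was lost (0.186) and 7 members were called (9.55% of all genes). With the cell line as a block 3 members passed (4.80% of all genes), Chd6 (adjusted p = 0.0575 by limma) and Chd9 (0.063) being lost.

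Merging the peaks of all 4 lists gave 710 regions within 2 kb of the member genes. Of these, 165 had peaks in both OL libraries and in neither OPC library (OL-only, 23.2%, against 16.8% in all genes), and 58 were OPC-only (8.17%, against 8.84%). Another 193 were shared by all 4 libraries (27.2%, against 26.8%). Of the OL-only regions, 157 (95.2%) lay in gene bodies away from the ends and 7 at gene ends. The OPC-only regions were placed alike, with 56 (96.6%) in gene bodies and 2 at gene ends. Of the 193 shared regions, 51 (26.4%) lay at gene ends. OL-only regions outnumbered OPC-only ones in 23 members, the reverse held in 7, 3 had equal numbers and 11 had neither. In all genes there were 23810 OL-only and 12513 OPC-only regions. The share of all genes with more OL-only regions was not counted, so the 23 are not read as a property of the members. The 9 members higher in covered sequence held 93 of the OL-only and 19 of the OPC-only regions. Regions of 1 gene share their libraries and are not replicates, so no test was made. Arid1b held 29 OL-only and 8 OPC-only regions, Hdac4 16 and 4, Hdac9 15 and 5, Chd7 11 and 0, Ehmt1 9 and 1 and Chd6 8 and 0. In Hdac7 the counts were 0 and 4.

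**Figure D4:**
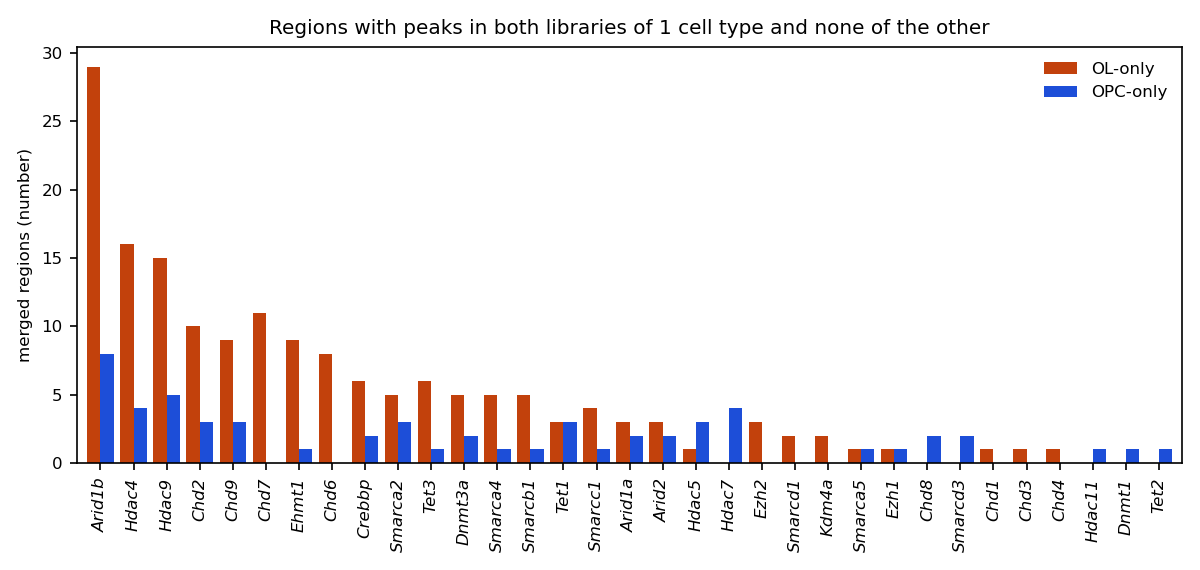
Number of OL-only (orange) and OPC-only (blue) merged regions in each member gene that had any. Arid1b has the most of both classes, with 29 and 8, and Hdac7 has 4 OPC-only regions and no OL-only region.

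The OL-only regions with the most covered sequence were in Tet3 (chr6:83381616-83382297), a dioxygenase gene of DNA demethylation, and in Smarca4 (chr9:21655628-21656273). They were followed by regions in Chd2 (chr7:73521068-73521775), Chd6 (chr2:161014625-161015228) and Hdac9 (chr12:34614997-34615616). Peaks of the OL lists covered 627 and 643 bp of the Tet3 region and 555 and 619 bp of the Smarca4 region, and those of the OPC lists covered 0. The largest OPC-only regions were in Tet1 (chr10:62847070-62847742), Smarcb1 (chr10:75898815-75899426), Arid1b (chr17:5043851-5044413 and chr17:5299023-5299554) and Hdac7 (chr15:97837515-97838038). The OL lists covered 0 bp of the Tet1 region and the OPC lists 583 and 661 bp. A further OPC-only region of Hdac7, chr15:97832225-97832531, lay upstream of the start window printed above. Shared regions were the longest, led by Arid1b (chr17:4993956-4996471), Dnmt3a (chr12:3806297-3808599), Ep300 (chr15:81584978-81586955), Chd7 (chr4:8689921-8691762) and Smarcc2 (chr10:128458385-128460067). The Arid1b region held 2236 and 2330 bp of peaks in OLs and 2486 and 2457 bp in OPCs, alike in all 4 libraries. The 9 OL-only regions of Ehmt1 were spread over the gene, from chr2:24813766-24814247 in its downstream part to chr2:24903855-24904106 in its upstream part.

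**Figure D5:**
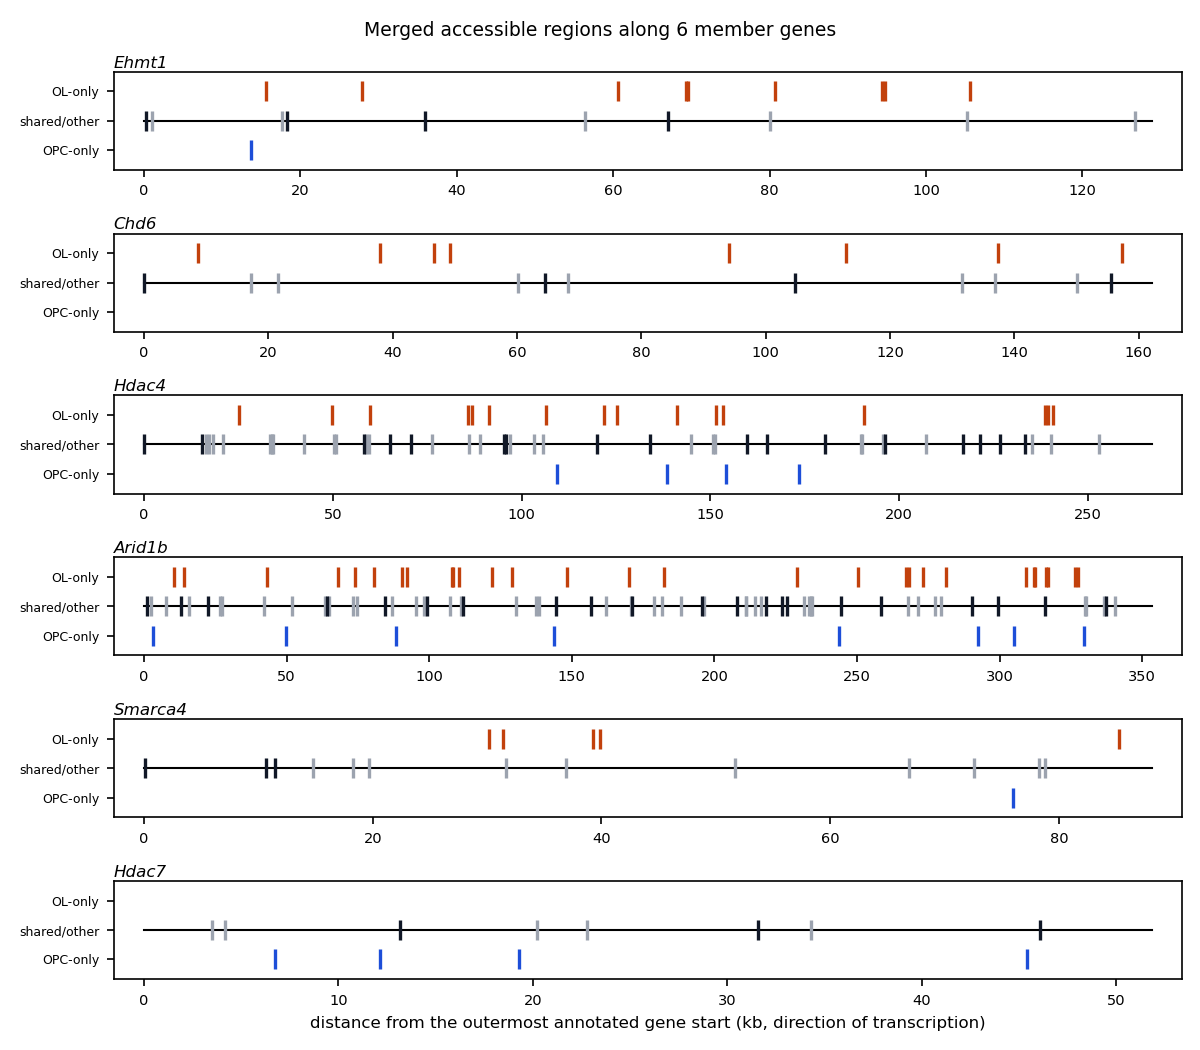
Position of merged regions along 6 member genes, in kb from the outermost annotated start in the direction of transcription. Ticks above the gene line are OL-only (orange), ticks below are OPC-only (blue), and ticks on the line are shared by all 4 libraries (black) or have another pattern (grey). OL-only regions are spread along Ehmt1, Chd6 and Arid1b, and Hdac7 has OPC-only regions alone beside its shared and other regions.

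Gene length went with the calls. Among the 13 members of 100 kb or longer, 7 were called, all higher in OLs (53.8%, against 37.6% of all genes that long, 22.2% higher and 15.4% lower). Among the 31 shorter members 3 were called (9.68%, against 16.2% of genes of that length, 8.88% higher and 7.34% lower), Smarca4 and Kdm4a higher and Hdac7 lower. The long members that did not pass were Chd9, Smarca2, Smarcc1, Hdac9, Crebbp and Dnmt3a. The part of length in the differences was not tested.

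Other genes of the same complexes and pathways were tested in the same way. Of 117 further chromatin regulators, 20 were higher and 5 were lower in covered sequence in OLs (21.4%, against 19.6% of all genes), with a median difference of 0.08. Calls were 3 higher and 1 lower of 29 remodeler subunits, 5 and 1 of 25 deacetylase partners and other deacetylases, 1 and 1 of 17 Polycomb genes, 4 and 0 of 13 acetyltransferases and readers, 7 and 2 of 25 other histone methyltransferases and demethylases, and 0 of 8 partners of DNA methylation. Ep400 (chr5:110664373-110770927), the motor of the TIP60 complex, had 4.14 and 4.42 kb in OLs and 1.43 and 1.34 kb in OPCs. Its difference was larger than that of any member (1.50 ± 0.15, adjusted p = 4.63e-06 by limma). Ncoa2, a nuclear receptor coactivator gene, had 8.77 ± 0.396 kb in OLs and 4.65 ± 0.404 kb in OPCs (0.89, adjusted p = 0.000161 by limma). Dpf3, a BAF subunit gene, had 4.38 ± 0.318 kb in OLs and 8.18 ± 1.82 kb in OPCs (-0.86, adjusted p = 0.000649 by limma). Hdac8, a class I deacetylase gene outside the set, had 1.93 and 2.18 kb in OLs and 4.97 and 2.64 kb in OPCs, with a wide gap between the OPC libraries (-0.77, adjusted p = 0.0126 by limma).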

How the data were processed

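Peak lists of 4 Omni-ATAC-seq libraries were used, 1 per group and line. The tools named, per the submitters' processing notes, are MACS2, Picard, Bowtie2 2.3.2 and Trim Galore 0.3.1, with build mm10. For the MACS2 version and threshold, duplicates and the Tn5 read shift, settings were not given in the sources used here. Calling was done by the authors for each library separately. Each deposited peak has a start and end, a score, a fold enrichment (a ratio) and -log10 p and q values, and only its positions entered the tests, except that the q value chose the best 50% of peaks in an alternative. Where a list has no peak, the site may still be open below the caller's threshold.

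Members and gene lists were chosen with earlier results of these data known. Covered bp and peak numbers per gene (RefSeq interval of GRCm38.p6 and 2 kb on each side) were scaled to the mean list total. They were analysed as log2(bp + 200) or log2(peaks + 1), where the mean reached 500 bp or 3 peaks. The test of OL against OPC was limma's (version 3.58.1, R 4.3.3, moderated, mean-variance trend, two-sided, Benjamini-Hochberg over all genes tested, threshold 0.05), after a check on simulated data. That check drew the libraries independently, with 1 spread for all genes. It cannot show how the test behaves with libraries paired by line. The log2 scale understates differences of genes with little coverage. An exact permutation test of 2 against 2 libraries cannot go below p = 0.333. Regions are merged peaks that overlap by at least 1 bp.

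Replicate numbers are the cell lines, so same-numbered libraries are paired. Deviations of libraries of the same line from their group means correlated across genes at 0.287 for covered bp, 0.267 at the ends, 0.204 in the rest and 0.127 for peak number. Genes with full values are those past a threshold in any test and the 4 others with the largest covered-bp difference. Regions named are the 5 of each class with the most covered bp.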

Additional observations from a re-analysis of the deposited data

Results flagged for a closer look

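In Hdac11, a class IV deacetylase gene, the lines moved in opposite directions, which singled it out. Covered bp were higher in OLs than in OPCs by 0.32 on the log2 scale in 129O1 and lower in EpiSC5 (-0.49), and peak number differed by 0.44 in 129O1 and by -0.61 in EpiSC5. With 1 library per group in each line, this difference between lines was not tested.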

How the results depend on the processing

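All counts are of members past the threshold in the limma tests, and some of these were not called in the main fit. With 200 bp around each summit these were Chd9 and Smarcb1, for covered bp and in the rest. With the best 50% of peaks they were Chd7 and Ehmt2 at gene ends, Chd2 in the rest, and Hdac4 and Hdac7 for peak number. Without scaling they were Chd7, Chd9 and Ezh1 at gene ends and Arid1b and Chd3 for peak number. With median-of-ratios scaling they were Chd7 at gene ends and Arid1b, Crebbp, Hdac4 and Hdac7 for peak number. Where calls over all genes are given, they moved as well, so those changes are not read as particular to the members. For the other settings this cannot be told. Without scaling, calls over all genes went from 2857 to 583 for covered bp and from 547 to 965 at gene ends. They went from 2130 to 615 in the rest and from 654 to 253 for peak number. With median-of-ratios scaling, 246 passed at gene ends and 1261 for peak number. Shares of all genes for settings not named here or above are not given. For covered bp per gene, 10 became 2 without scaling, 5 with 200 bp around each summit, 5 with the best 50% of peaks by q value, and 5 to 9 with 1 library left out. At gene ends, the count stayed at 1 with 2 kb on either side of an end, but Smarcd1 was lost and Ezh1 called, and 1 became 4 without scaling, 2 with median-of-ratios scaling, 2 with a pseudocount of 500 bp, 0 with summit windows (0 members and 146 genes at an unadjusted p below 0.05), 3 with the best 50%, 0 with the start end alone (3 members and 865 genes unadjusted), 4 with the replicate block, and 0 to 3 with 1 library left out. In the rest, 9 became 1 without scaling, 5 with summit windows, 4 with the best 50% and 0 to 14 with 1 library left out. For peak number, 5 became 2 without scaling, 9 with median-of-ratios scaling, 0 without a filter (16 members and 4358 genes unadjusted), 2 with the best 50%, 3 with the block, and 0 to 7 with 1 library left out. For ends against rest, 4 became 1 without a filter, 0 with summit windows (1 and 114 unadjusted), 0 with the best 50% (6 and 1214 unadjusted), 7 with the block, and 0 to 4 with 1 library left out. The 223 regions found in 1 cell type alone became 239 with 50% overlap and 270 to 316 with 1 library left out. Of the alternatives for single genes, 1 turned the direction, Chd9 peak number with the best 50% (-0.13). Another 300 kept direction and stayed called or uncalled as before, 129 lost the call and 2, in Ezh1 and Hdac5, gained it. The 300 include Dnmt1 (13), Ezh1 (12), Ezh2 (13) and Hdac5 (12), which were uncalled in the main fit and stayed so. With a library left out, the lone library of its group is assumed to vary like the others. The causes were not tested, and the depth that sets peak detection is unknown. Beside the results named in the report, the block changed no other call of covered bp, and in the rest it added Smarcb1.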
